A study of Mus musculus with 12 samples.

Results

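Genes of red blood cells and neutrophils, 9 in all, were followed through the RNA of perfused mouse hearts. They were taken by name from the deposited gene table: the alpha globins Hba-a1 and Hba-a2, the beta globins Hbb-bs and Hbb-bt, the erythroid enzyme Alas2, and the neutrophil genes S100a8, S100a9, Ly6g and Csf3r. All 9 were found, once each, among 52858 genes. RNA was sequenced from 12 hearts in 4 groups of 3: C57-non-IR and Slit2-non-IR without, C57-IR and Slit2-IR with ischemia-reperfusion (IR), and the deposited values are FPKM (fragments scaled to gene length and library depth).

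All hearts came from male mice of 3 to 5 months, labelled as strain C57BL/6J, with the genotype C57BL/6J or Slit2-Tg. The Slit2-Tg mice carry full-length human Slit2 cDNA behind the CMV promoter, which is not specific to one cell type, and the founders were made by injecting C57 × CBA F1 oocytes. Each heart was excised and perfused with cell-free Krebs-Henseleit buffer on a Langendorff apparatus, where fluid enters the coronary vessels backwards through the aorta. Every heart spent 80 min on the apparatus. Buffer ran the whole time in the non-IR groups, whereas in the IR groups it was shut off between minutes 20 and 40, leaving 40 min with flow back on. The letters of the sample titles, read against the methods, gave the IR status. An isolated heart on buffer has no circulation to deliver new blood cells.

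Hemoglobin is a tetramer of alpha-like and beta-like chains, each holding a heme. Adult mouse red cells make it from duplicated alpha genes and a pair of beta genes, and reticulocytes keep these messages after losing their nucleus. Alas2 makes the first intermediate of heme in erythroid cells. Neutrophils are the first white cells to enter injured myocardium. They store the S100a8 and S100a9 calcium-binding pair (calprotectin) in the cytosol, carry Ly6g on their surface, and depend on Csf3r, the receptor for granulocyte colony-stimulating factor, which monocytes express as well.

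In GRCm38 coordinates from the files, Hba-a1 lies on chromosome 11 at 32283511 to 32284465 and Hba-a2 on the same strand at 32296489 to 32297298. Hbb-bs (103826534 to 103828096) and Hbb-bt (103812524 to 103813996) are neighbours on the minus strand of chromosome 7. Alas2 is on chromosome X, Csf3r on chromosome 4 and Ly6g on chromosome 15, and S100a8 and S100a9 are neighbours on chromosome 3. All 9 are protein-coding.

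Within each globin pair the messages are nearly the same, and long stretches are shared. The coding sequences of Hba-a1 and Hba-a2 in GRCm38 are 429 bases long and differed at 1 base, C381T, counted from the A of the start codon. The coding sequences of Hbb-bs and Hbb-bt are 444 bases long and also differed at 1 base, C417T. The last 120 coding bases of each gene, 5′ to 3′ on the coding strand and up to the stop codon, are shown because they hold the only coding difference, which is in capitals.
Hba-a1: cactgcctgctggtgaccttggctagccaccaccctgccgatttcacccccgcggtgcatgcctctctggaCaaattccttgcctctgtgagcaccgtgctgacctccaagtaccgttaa
Hba-a2: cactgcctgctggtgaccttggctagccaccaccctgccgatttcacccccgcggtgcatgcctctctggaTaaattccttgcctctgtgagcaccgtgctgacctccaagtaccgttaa
Hbb-bs: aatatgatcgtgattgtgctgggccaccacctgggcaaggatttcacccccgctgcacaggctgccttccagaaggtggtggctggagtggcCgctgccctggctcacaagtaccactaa
Hbb-bt: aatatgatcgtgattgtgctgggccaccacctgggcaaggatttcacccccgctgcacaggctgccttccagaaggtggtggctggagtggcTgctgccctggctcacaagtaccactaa
Of the 120-base windows of the annotated transcripts, 51.6% of those in Hba-a1 were also in Hba-a2, and 68.7% of those in Hba-a2 were also in Hba-a1. For Hbb-bs and Hbb-bt the shares were 61.1% and 53.3%. The window is shorter than the sequenced reads, which were paired, so these are not the shares of reads that match both copies. How the authors' counting placed reads that match both copies is not given in the sources used here. Each single-copy value is therefore uncertain, while the summed reads of a pair are not affected by a swap between its copies. Summed FPKM can shift with a swap, because the copies differ in length. The lengths in the files are 812 and 667 bases for Hba-a1 and Hba-a2, and 768 and 703 for Hbb-bs and Hbb-bt. If reads that match both copies were left out of the counts, the sums over pairs would be too low. This could not be checked.

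The promoters are shown for Hba-a1 and Hbb-bs, the 2 members with the most reads. The RefSeq promoter table (GRCm38.p6) held all 9 members, and the files' own annotation begins both genes further upstream, within these windows. Each line gives the 250 bases before the RefSeq start site, 5′ to 3′ on the gene's strand, at chr11:32283422-32283671 (plus strand) for Hba-a1 and chr7:103827929-103828178 (minus strand) for Hbb-bs. Capitals mark the letters GATAA (the core that GATA factors bind), the CACCC box of Klf factors, the CCAAT box and the TATA-box letters TATAA, each searched on both strands, and no 2 matches overlapped in these windows.
Hba-a1: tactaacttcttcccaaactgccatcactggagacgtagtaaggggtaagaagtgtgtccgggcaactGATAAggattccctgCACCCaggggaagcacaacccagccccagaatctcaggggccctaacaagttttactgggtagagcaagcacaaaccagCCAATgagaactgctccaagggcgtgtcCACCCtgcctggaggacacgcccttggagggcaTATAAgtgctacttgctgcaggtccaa
Hbb-bs: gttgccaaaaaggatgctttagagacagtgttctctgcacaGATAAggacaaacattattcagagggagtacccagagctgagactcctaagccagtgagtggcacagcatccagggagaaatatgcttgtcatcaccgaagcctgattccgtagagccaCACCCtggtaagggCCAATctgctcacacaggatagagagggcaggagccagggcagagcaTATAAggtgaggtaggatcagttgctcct
All 4 globin promoters held all 4 motifs. Among 32817 promoters of the same length, the GATA letters were found in 22.59%, the CACCC box in 52.01%, the CCAAT box in 33.83% and the TATA-box letters in 22.79%. The promoters of the alpha copies were identical over the 247 bases that could be aligned, whereas those of the beta copies were identical at 127 of 249 bases. The promoter of Alas2 held the GATA letters, the CACCC box and the TATA-box letters. That of S100a8 held the TATA-box letters alone, and that of S100a9 the GATA letters and the CACCC box. Those of Ly6g held the CCAAT box and the TATA-box letters, and that of Csf3r the CACCC box. Counted from the start site, the TATA-box letters began at -208 and -207 in Alas2 and at -27 in Hba-a1. These matches describe the sequence only.

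Reads on genes, recovered from the FPKM values, ranged from 16601154 to 24841291 per library, and 19.7% to 26.0% of them were mitochondrial. The labelled tissue was evident from all 10 cardiomyocyte genes examined, whose summed FPKM ranged from 16871 to 24310. The library numbered 1 stood apart in every group. Its Ttn level was 23.5 to 49.6 FPKM against 8.65 to 12.9 in the other 8 libraries, and its summed level of 10 resident macrophage genes was 139 to 201 against 225 to 315. The mouse Slit2 row was 0.180 to 0.282 FPKM in C57BL/6J hearts and 0.0847 to 0.813 in Slit2-Tg hearts. It does not check the labels, because the transgene is a human cDNA.

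Globin messages were present in all 12 perfused hearts, at a very low level as counted, where reads that match both copies may be missing. The 4 adult globin genes together took 6.396, 7.13 and 12.6 of every 1000000 reads on genes in the C57-non-IR libraries 1, 2 and 3. They took 0.852, 4.83 and 5.04 in C57-IR, 10.6, 40.2 and 3.78 in Slit2-non-IR, and 9.91, 1.37 and 2.58 in Slit2-IR. The highest library, Slit2-non-IR replicate 2, held 876 globin reads, and its summed FPKM was 3.05 times that of the next highest library. The lowest, C57-IR replicate 1, held 16. The summed FPKM was 11.1 ± 4.29 (SD, n = 3) in C57-non-IR, 4.88 ± 3.20 in C57-IR, 22.1 ± 23.5 in Slit2-non-IR and 5.95 ± 6.06 in Slit2-IR. Without Slit2-non-IR replicate 2, the mean of that group was 8.78 (n = 2). In bulk RNA, fewer cells of a type and less RNA per cell cannot be told apart.

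**Figure D1:**
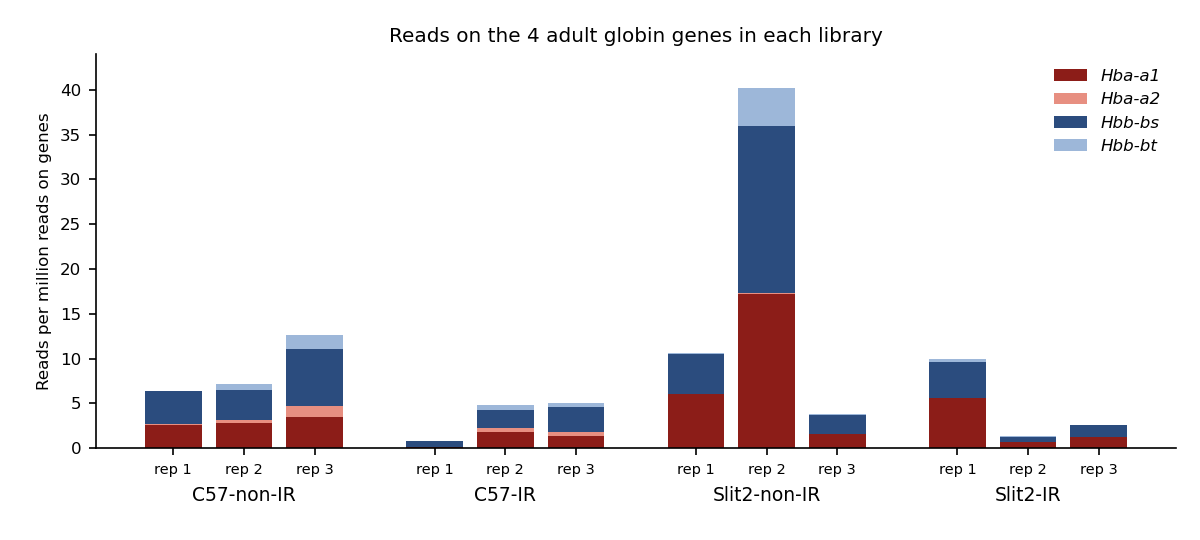
Reads on the 4 adult globin genes per 1000000 reads on genes (vertical axis), 1 stacked bar per library, grouped by condition (rep, replicate). Slit2-non-IR replicate 2 reaches 40.2 and every other library lies between 0.852 and 12.6.

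Hbb-bs, the major beta chain in these hearts, was 4.82, 4.16 and 7.90 FPKM in the C57-non-IR libraries and 0.895, 2.84 and 3.65 in C57-IR. Every C57-IR library was lower than every C57-non-IR library. In Slit2-non-IR it was 5.65, 22.9 and 2.52, and in Slit2-IR 5.32, 0.865 and 1.69, so these groups overlapped. The log2 fold change on log2(FPKM + 1) was -0.99 ± 0.65 (SE) in C57BL/6J hearts (adjusted p = 0.783, limma) and -1.38 ± 0.65 in Slit2-Tg hearts (adjusted p = 0.461). It was -0.61 in C57BL/6J hearts without C57-IR replicate 1, and -0.61 in Slit2-Tg hearts without Slit2-non-IR replicate 2. Averaged over both genotypes it was -1.19 ± 0.46, with a 95% interval of -2.19 to -0.18, an unadjusted p of 0.0248 and an adjusted p of 0.219 (limma).

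Hba-a1, the more abundant alpha row, was 3.25, 3.25 and 4.06 FPKM in C57-non-IR and 0.212, 2.43 and 1.70 in C57-IR, again without overlap. It was 7.30, 19.97 and 1.85 in Slit2-non-IR and 7.16, 0.818 and 1.44 in Slit2-IR, which overlapped. The mean IR effect was -1.13 ± 0.50, with a 95% interval of -2.22 to -0.04, an unadjusted p of 0.0427 and an adjusted p of 0.292 (limma). When libraries with the same number were set side by side, both Hbb-bs and Hba-a1 were lower after IR in 6 of 6 pairs, which was so for 5.67% of all tested genes, and the numbers are only names of libraries in the labels. By exact permutation over libraries within genotype (two-sided, 400 relabelings), the IR difference had p = 0.035 for Hbb-bs and p = 0.055 for Hba-a1, or 0.22 and 0.242 after Benjamini-Hochberg adjustment over the 22 tests of this kind. In the 8 libraries numbered 2 and 3 the mean IR effects were -1.36 for Hbb-bs (adjusted p = 0.264, limma) and -1.24 for Hba-a1 (adjusted p = 0.308). The 2 genes thus had lower values after IR, and the difference did not pass the test across all genes.

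Hbb-bt, the second beta gene, was 0.0835, 0.857 and 2.14 FPKM in C57-non-IR and 0.0815, 0.865 and 0.633 in C57-IR. It was 0.137, 5.74 and 0.112 in Slit2-non-IR and 0.420, 0.118 and 0 in Slit2-IR. A single library, Slit2-non-IR replicate 2, held 93 of the 168 reads on this gene, and all groups overlapped. Its mean IR effect was -0.56 ± 0.43 (adjusted p = 0.614, limma), which became -0.13 without Slit2-non-IR replicate 2, -0.37 without C57-non-IR replicate 3 and -1.29 by limma-voom on the recovered reads.

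Hba-a2, the second alpha gene, had 54 reads in all and did not pass the filter on low values. It was 0.176, 0.556 and 1.91 FPKM in C57-non-IR, 0, 0.608 and 0.734 in C57-IR, and 0, 0.195 and 0 in Slit2-non-IR, and was listed at 0 in all 3 Slit2-IR libraries. Reads were therefore found in 5 of 6 C57BL/6J hearts and in 1 of 6 Slit2-Tg hearts. This split was not mirrored by Hba-a1, which had 232 reads in C57BL/6J and 695 in Slit2-Tg hearts.

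Given as a share of the reads on both alpha rows, Hba-a2 took 51 of 283 reads in the C57BL/6J hearts (18.02%, 95% exact binomial interval 13.7% to 23.004%) and 3 of 698 in the Slit2-Tg hearts (0.430%, 0.0887% to 1.25%). Intervals on pooled reads cover counting error only. Per library, the share was 4.26%, 12.3% and 27.8% in C57-non-IR and 0%, 17.02% and 26.2% in C57-IR. The 0% came from C57-IR replicate 1, which had 3 alpha reads in all and an interval up to 70.8%. In Slit2-Tg hearts the share was 0% in 5 libraries and 0.796% in Slit2-non-IR replicate 2, which had 377 alpha reads. All other C57BL/6J libraries thus lay above all Slit2-Tg libraries. The mean share was 14.6% over the 6 C57BL/6J libraries, 17.5% without C57-IR replicate 1, and 0.133% over the 6 Slit2-Tg libraries. The difference, Slit2-Tg minus C57BL/6J, was -14.5 percentage points (exact permutation within IR status, two-sided p = 0.02, adjusted p = 0.22). The smallest p these 400 relabelings allow is 0.005, and the share was chosen for testing after its values were seen.

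The beta pair did not show such a split. Hbb-bt took 63 of 418 beta reads in C57BL/6J hearts (15.1%, 95% exact binomial interval 11.8% to 18.9%) and 105 of 778 in Slit2-Tg hearts (13.5%, 11.2% to 16.1%). Per library the share ranged from 0% to 21.8%. The difference of the library means, -6.31 percentage points, had an exact permutation p of 0.19 (adjusted p = 0.523). Within 1000000 bases of Hba-a2, 18 other genes were tested, and 0 of them differed between genotypes at an adjusted p under 0.05 (limma, mean Slit2-Tg effect), with 3 at an unadjusted p under 0.05, where 4.13% of all tested genes were. Their log2 differences ranged from -1.60 to 0.59. Around Hbb-bs, 9 genes were tested within the same distance, with 0 at either threshold.

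**Figure D2:**
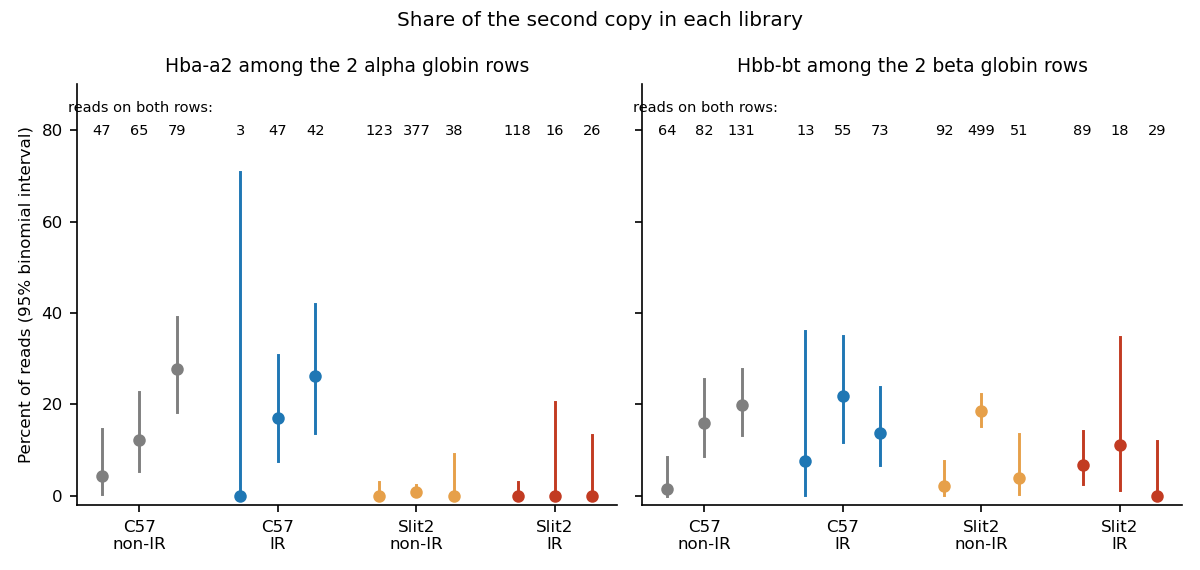
Percent of alpha globin reads on Hba-a2 (left) and of beta globin reads on Hbb-bt (right) in each library, with exact 95% binomial intervals as vertical lines and the number of reads on both rows printed above. On the left all 6 Slit2-Tg libraries lie at or under 0.796% and 5 of 6 C57BL/6J libraries between 4.26% and 27.8%, while on the right the genotypes overlap.

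The balance of chains also varied. The summed alpha FPKM divided by the summed beta FPKM was 0.684 ± 0.0835 (SD, n = 3) in C57-non-IR, 0.535 ± 0.304 in C57-IR, 0.889 ± 0.323 in Slit2-non-IR and 0.975 ± 0.235 in Slit2-IR. The highest ratios, 1.26 and 1.25, were in the Slit2-non-IR and Slit2-IR libraries numbered 1, which also had high Ttn levels. The part of these libraries' properties in the ratio was not tested. The lowest, 0.217 in C57-IR replicate 1, rested on 3 alpha and 13 beta reads. On the log2 scale, the ratio of Hba-a1 to Hbb-bs FPKM was 0.85 higher in Slit2-Tg hearts (exact permutation p = 0.02, adjusted p = 0.22). This ratio is of single copies, so it is not separate from how reads were placed on Hba-a1 or Hba-a2. Before the log it was 0.236 in C57-IR replicate 1, from 3 Hba-a1 reads. It was 1.29 and 1.34 in the Slit2-non-IR and Slit2-IR libraries numbered 1.

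Alas2 had 65 reads in the whole series and at least 1 in every library. It was 0.0244, 0.0964 and 0.240 FPKM in C57-non-IR and 0.286, 0.0422 and 0.0370 in C57-IR. It was 0.140, 0.216 and 0.0493 in Slit2-non-IR and 0.0410, 0.0519 and 0.112 in Slit2-IR. The groups overlapped in all 4 comparisons, and the mean IR effect was -0.04 ± 0.07 (adjusted p = 0.845, limma). The library with the fewest globin reads, C57-IR replicate 1, had the highest Alas2 level. Over the 12 libraries no relation between the summed globin level and Alas2 passed the threshold on the log2 scale (Pearson r = 0.146, permutation p = 0.637, adjusted p = 0.775; Spearman rho = 0.112, permutation p = 0.728, adjusted p = 0.728), and r was 0.430 without the 2 libraries farthest from the median globin level.

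Other genes of red cells were looked up from lists. Of 6 embryonic and theta globin genes in the files, 5 had no read in any library, and Hbb-y had 1. Of 15 red cell membrane genes, 8 passed the filter. The list was not uniform. Summed over 12 libraries, the anion exchanger Slc4a1 had 4 reads, Epb42 had 1 and the Rh-associated Rhag had 1, whereas the surface genes Rhd and Gypc had 1903 and 7163 reads, or 4.79 and 12.1 FPKM on average, and passed the filter. Spectrin and ankyrin genes, which muscle expresses as well, made up most of the list, with mean levels of 17.5 FPKM for Ank1 and 13.5 for Sptb. Of 15 erythroid regulators and late erythroid genes in the files, 6 passed the filter, among them Slc25a38 (8.16 FPKM), Bpgm (4.83), Tal1 (1.76) and the erythropoietin receptor Epor (1.22), while the erythroid factors Gata1 and Klf1 had 3 and 30 reads. In the mean IR effect, 3.49% of all tested genes were called. Of the 8 tested membrane genes 0 passed an adjusted p of 0.05 (limma), as did 0 of these 6. At an unadjusted p under 0.05, 2 and 0 of them were lower, where 15.9% of all tested genes differed in either direction. The median log2 fold change was -0.02 for the membrane genes and -0.11 for the regulators, and that of all tested genes was 0.00. All 8 general heme synthesis genes were measured, led by Fech at 43.7 and Alas1, the non-erythroid partner of Alas2, at 28.1 FPKM, and 0 of the 8 passed either threshold for IR.

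Of 11 genes in the files that clear free hemoglobin and heme, 10 passed the filter. The hemoglobin receptor Cd163 averaged 9.99 FPKM, and its IR effect was -0.33 ± 0.30 (adjusted p = 0.686, limma). The heme-degrading enzyme Hmox1 was 4.46, 7.01 and 5.58 FPKM in C57-non-IR, 16.4, 48.6 and 27.0 in C57-IR, 3.96, 37.0 and 7.51 in Slit2-non-IR, and 30.0, 35.4 and 14.5 in Slit2-IR. The C57BL/6J groups did not overlap and the Slit2-Tg groups did. Its mean IR effect of 1.64 ± 0.45 did not pass the test (unadjusted p = 0.00405, adjusted p = 0.0801, limma), and the high Slit2-non-IR value was in replicate 2, the library with the most globin reads. Of the 10 tested genes on this list, 0 were called in the mean IR effect, against 3.49% of all tested genes.

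The neutrophil genes were close to the limit of detection. Ly6g had 0 reads in all 12 libraries, out of 249853428 reads on genes, where a count of 0 allows up to 3 reads. S100a8 had 1, 3 and 7 reads in the C57-non-IR libraries and 0 in all 3 C57-IR and all 3 Slit2-non-IR libraries, and it had 0, 1 and 0 in Slit2-IR. C57-non-IR, with 11 reads, was thus above C57-IR and above Slit2-non-IR without overlap, but in its replicate 1 only by 1 read against 0. Of all tested genes, 7.01% were lower without overlap in C57-IR and 4.57% in Slit2-non-IR, each against C57-non-IR. S100a9 had 0, 6 and 4 reads in C57-non-IR, 0, 0 and 2 in C57-IR, 3, 3 and 0 in Slit2-non-IR, and 3, 1 and 0 in Slit2-IR. The floor of 3 reads was exceeded by S100a8 in 1 library and by S100a9 in 2, all of them C57-non-IR. Neither gene passed the filter. In a fit without the filter, S100a8 was lower in C57-IR than in C57-non-IR by a log2 difference of -0.35 ± 0.11 (unadjusted p = 0.00847, adjusted p = 0.426, limma). The fit shares 1 estimate of spread over the groups, and C57-IR and Slit2-non-IR held only 0. Its SE and p therefore do not measure the spread within C57-non-IR. The permutation within genotype gave p = 0.1 for the IR difference of S100a8 (exact, adjusted p = 0.314).

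Csf3r was the only one of the 4 neutrophil genes to pass the filter, with 279 reads. It was 0.277, 0.205 and 0.368 FPKM in C57-non-IR and 0.159, 0.393 and 0.395 in C57-IR. It was 0.134, 0.432 and 0.219 in Slit2-non-IR and 0.464, 0.334 and 0.298 in Slit2-IR. All groups overlapped, and the mean IR effect was 0.08 ± 0.07, with a 95% interval of -0.08 to 0.23 (adjusted p = 0.697, limma). No relation of its level to that of S100a8 plus S100a9 over the 12 libraries passed the threshold (Pearson r = 0.1005, permutation p = 0.775, adjusted p = 0.775; Spearman rho = 0.203, permutation p = 0.525, adjusted p = 0.728), and r was 0.304 without the C57-non-IR libraries 2 and 3, which lay farthest from the median.

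**Figure D3:**
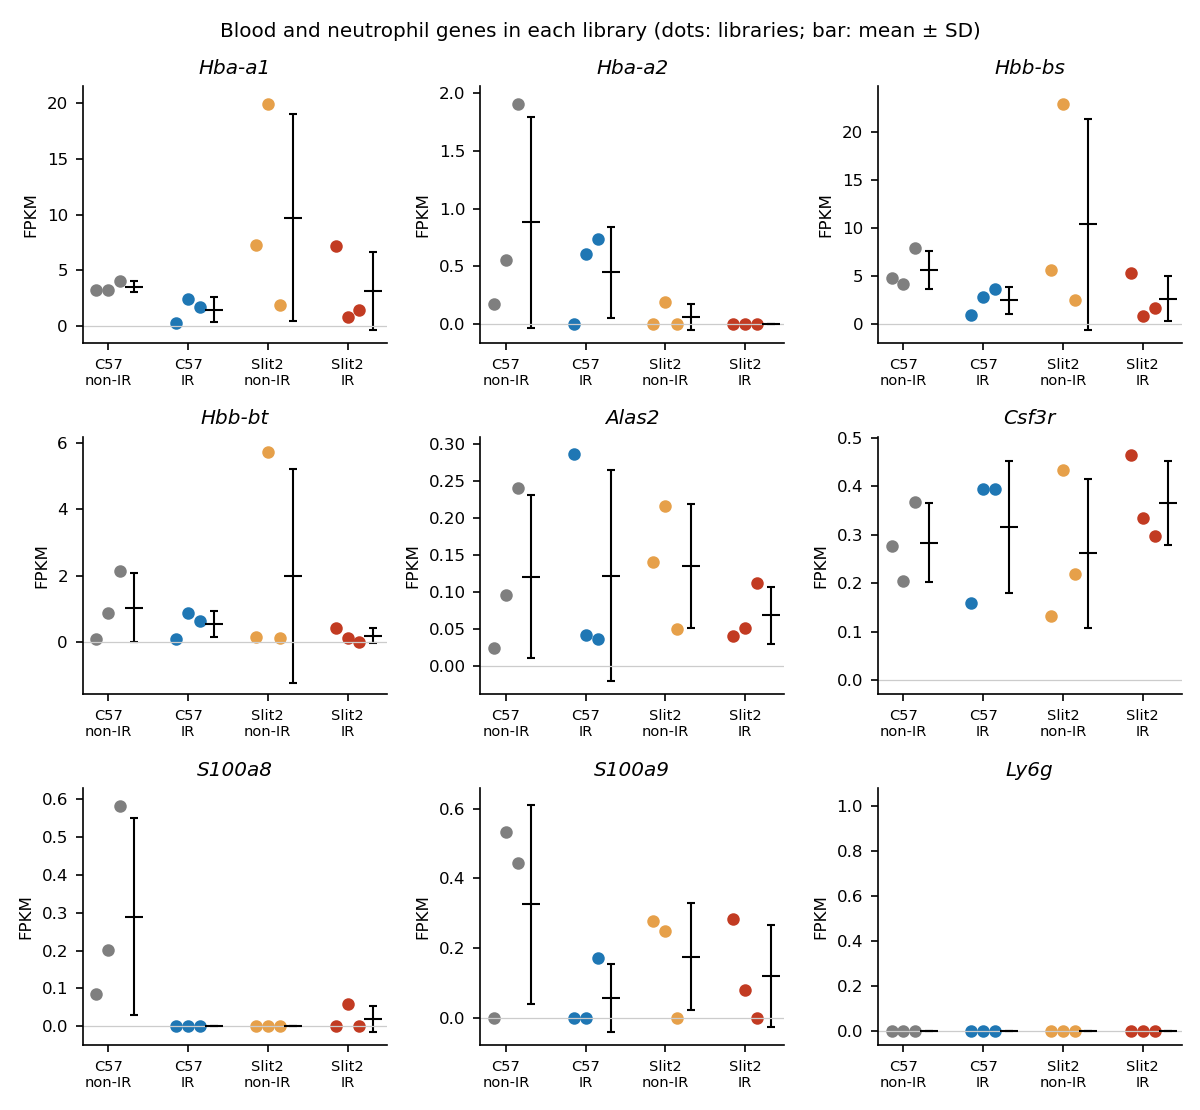
FPKM (vertical axes, a separate linear scale for each gene) of the 9 genes in the 4 groups, with a dot per library in the order 1, 2 and 3 and a bar for the mean ± SD (n = 3). Hba-a1 and Hbb-bs in C57-IR lie below all C57-non-IR libraries, Hba-a2 is at 0 in 5 of 6 Slit2-Tg libraries, and Ly6g is at 0 in all 12.

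Most other neutrophil markers also had few or no reads. Of 15 granule genes, 3 passed the filter. The granule proteins that define neutrophils were at or near 0 over the series, with 4 reads for Mpo, 0 for Elane, 3 for Ngp, 6 for Camp and 0 for Cd177. Most of that list's level came from Lcn2 (1.86 FPKM on average) and Mmp9 (0.454), which heart and vessel cells can make too. The summed level of the list was 1.30 to 3.32 FPKM in C57-non-IR, 2.78 to 4.84 in C57-IR, 2.27 to 3.54 in Slit2-non-IR and 1.21 to 2.53 in Slit2-IR. In the mean IR effect, 0 of its 3 tested genes were called, against 3.49% of all tested genes. Of 26 receptor and mature neutrophil genes, 8 had no read in any library and 4 passed the filter. The chemokine receptors Cxcr1 and Cxcr2 had 0 and 2 reads. Among the members, the label of neutrophil RNA therefore rests on Csf3r and on the 34 reads of S100a8 and S100a9. Mpo, Elane, Ngp, Camp, Cd177, Cxcr1 and Cxcr2 were at or near 0 in IR and non-IR hearts alike.

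Il1r2, the decoy receptor for interleukin 1 and a gene of that list, had 0, 1 and 0 reads in C57-non-IR, 1, 13 and 12 in C57-IR, 0, 1 and 1 in Slit2-non-IR and 14, 10 and 6 in Slit2-IR. The C57BL/6J groups met at 1 read, and the Slit2-Tg groups were apart. It reached 10 reads in IR libraries alone and so passed the filter only through the groups where it was high, and its mean IR effect of 0.27 ± 0.06 on the log2(FPKM + 1) scale is given as a description. The adjusted p was 0.0419 with the filter and 0.0929 without it (limma).

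The signals that recruit neutrophils moved strongly, in hearts with few or no reads on S100a8, S100a9 and Ly6g. Of 9 chemokines, colony-stimulating factors and adhesion molecules, 6 passed the filter, 5 rose with IR and 0 fell (limma, mean IR effect). The median log2 fold change of the 6 was 1.92 against 0.00 for all tested genes, of which 2.34% were called higher and 1.15% lower. Cxcl1, a chemokine that attracts neutrophils, was 4.70, 12.4 and 9.28 FPKM in C57-non-IR and 19.3, 78.7 and 31.2 in C57-IR. It was 2.37, 8.72 and 13.3 in Slit2-non-IR and 36.1, 44.9 and 28.8 in Slit2-IR. Neither genotype's groups overlapped, and the mean IR effect was 2.14 ± 0.40 (adjusted p = 0.015). Without the filter the adjusted p was 0.0515, so that 4 of the 5 calls held there. The related chemokine Cxcl2 rose by 2.24 ± 0.37 (adjusted p = 0.0075).

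Endothelial adhesion molecules rose with them. E-selectin, Sele, on which neutrophils roll, was 0.383, 0.414 and 0.496 FPKM in C57-non-IR and 3.54, 12.9 and 5.87 in C57-IR. It was 0.166, 0.447 and 0.638 in Slit2-non-IR and 13.5, 7.32 and 4.25 in Slit2-IR, again with no overlap. It was the only recruitment gene called within each genotype (log2 fold change of 2.40, adjusted p = 0.0390, in C57BL/6J and 2.61, adjusted p = 0.0243, in Slit2-Tg hearts, limma). The C57BL/6J call was lost without C57-IR replicate 2 or 3, any C57-non-IR library or any Slit2-non-IR library (adjusted p up to 0.153), and also by limma-voom, without the filter and with the 6 libraries compared (adjusted p = 0.0869, 0.134 and 0.113). The Slit2-Tg call was lost without C57-non-IR replicate 3, Slit2-IR replicate 1 or 2, or any Slit2-non-IR library (adjusted p up to 0.110), without the filter (0.0762) and in the 8 libraries numbered 2 and 3 (0.0945). P-selectin, Selp, rose by 1.28 ± 0.21 and Icam1, the ligand of neutrophil integrins, by 1.70 ± 0.26 in the mean of both genotypes (adjusted p = 0.00751 and 0.00491). Cxcl5, with an effect of 0.80 ± 0.20, just missed the threshold (adjusted p = 0.0559). No recruitment gene was called for Slit2-Tg against C57BL/6J in any of the 3 genotype contrasts, or for the interaction. Few genes of any kind were. Of all tested genes, 0.0394% were called for Slit2-non-IR against C57-non-IR, 0.0459% for Slit2-IR against C57-IR and 0.131% for the mean Slit2-Tg effect. For the interaction the share was 0.0%.

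**Figure D4:**
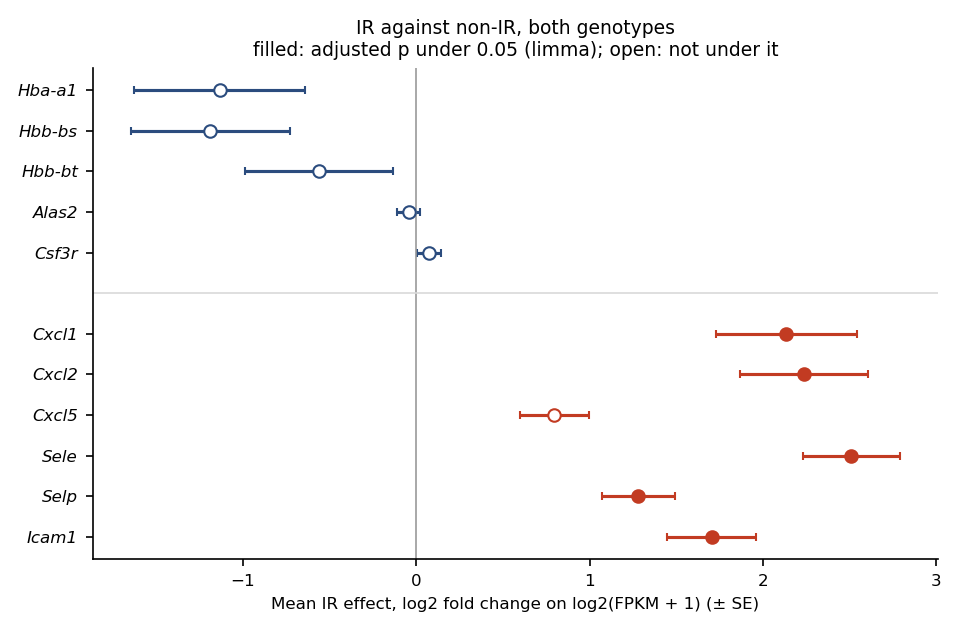
Mean IR effect in both genotypes as log2 fold change on log2(FPKM + 1), with SE as horizontal bars, for the 5 tested members (blue, above the line) and 6 recruitment genes (red, below it), where filled points have an adjusted p under 0.05. The 3 globins lie between -1.19 and -0.56 and Csf3r at 0.08, all open, while 5 of the 6 recruitment genes are filled and lie between 1.28 and 2.51.

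Across the members, 5 of 9 passed the filter on low values, and 0 of these were called in any of 7 contrasts at an adjusted p under 0.05 (limma). The share of all 15240 tested genes called was 0.459% for C57-IR against C57-non-IR, 0.525% for Slit2-IR against Slit2-non-IR and 3.49% for the mean IR effect. It was 0.0394% for Slit2-non-IR against C57-non-IR, 0.0459% for Slit2-IR against C57-IR, 0.131% for the mean Slit2-Tg effect and 0.0% for the interaction. At an unadjusted p under 0.05, 2 members were called, both in the mean IR effect, where 15.9% of all tested genes were. In the other contrasts 0 of 5 were, against 8.96% of tested genes for C57-IR against C57-non-IR, 11.2% for Slit2-IR against Slit2-non-IR, 3.19% for Slit2-non-IR against C57-non-IR, 3.16% for Slit2-IR against C57-IR, 4.13% for the mean Slit2-Tg effect and 1.86% for the interaction. Calls by limma-voom on the recovered reads were also 0 of 5 in all 7 contrasts. The smallest adjusted p of a member was 0.219.

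Counted by overlap of groups, 3 of the 9 genes (Hba-a1, Hbb-bs and S100a8) were lower in every C57-IR than in every C57-non-IR library. S100a8 did not pass the filter. Of the 5 tested members only Hba-a1 and Hbb-bs were thus lower, a state found for 7.01% of all tested genes. In Slit2-IR against Slit2-non-IR this held for 0 of 9, against 8.3% of tested genes. For Slit2-non-IR against C57-non-IR, S100a8 alone was lower without overlap, so no tested member was, against 4.57% of tested genes. In Slit2-IR against C57-IR 0 of 9 were so (3.44%). These 4 comparisons share groups, so their counts are not independent.

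The genotype contrasts gave no call either. Hba-a1 was higher in Slit2-Tg hearts by 0.69 ± 0.50 in the mean of both conditions (adjusted p = 0.999, limma), with a 95% interval of -0.40 to 1.78. The difference was 0.34 without Slit2-non-IR replicate 2, 0.36 without Slit2-IR replicate 1, 1.06 without Slit2-non-IR replicate 3 and 0.10 in the 8 libraries numbered 2 and 3. Hbb-bs differed by 0.16 ± 0.46 (interval -0.84 to 1.17), and its sign turned to -0.22 without Slit2-non-IR replicate 2.

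In order of mean level per length over the 12 libraries, Hbb-bs (5.27 FPKM) came first, then Hba-a1 (4.45), Hbb-bt (0.932), Hba-a2 (0.348), Csf3r (0.306), S100a9 (0.170), Alas2 (0.111), S100a8 (0.0773) and Ly6g (0). Hbb-bs was above Hba-a1 in 10 of 12 libraries, and Hba-a1 above Hbb-bt in 12 of 12. On log2(FPKM + 1), the mean difference between Hba-a1 and Hbb-bt, 1.33, exceeded its SD over libraries of 0.80. For every other pair of neighbours in this order the mean difference was smaller than its SD, and Hba-a2 was above Csf3r in 4 of 12 libraries, so their order is not resolved. Hbb-bs exceeded 63.7% and Hba-a1 59.6% of the tested genes in mean FPKM, while Alas2 exceeded 2.65%.

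Globin and calprotectin levels were compared because whole blood is rich in both. Over 12 libraries, the summed globins and S100a8 plus S100a9 gave Pearson r = 0.510 (permutation p = 0.112, adjusted p = 0.337) and Spearman rho = 0.755 (permutation p = 0.00692, adjusted p = 0.0208, 3 relations). Taken as deviations from the group means, rho was 0.595 (adjusted p = 0.136). Without Slit2-non-IR replicate 2 and C57-IR replicate 1, the 2 libraries farthest from the median globin level, r was 0.626 (adjusted p = 0.0973) and rho 0.742 (adjusted p = 0.0593). The relation rests on 0 to 11 calprotectin reads per library, and the values share a library and its scaling. A relation with Ly6g could not be computed because Ly6g was 0 throughout.

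As a description, the tested gene most like the summed globins over the 12 libraries was Zfp934 (Pearson r = 0.894), followed by Ezh1 (0.893) and Slc27a3 (0.870). For S100a8 plus S100a9 it was Kcnn3 (0.897), followed by Flt3 (0.833) and Lyl1 (0.822). None of the 10 most similar genes in either case was another member or a gene of the red cell or neutrophil lists. Only tested genes outside the sum were ranked. For the globin sum, Alas2 and Csf3r were thus the only members that could appear, and most neutrophil genes of the lists could not.

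Gene lists of other white cells and platelets stood at higher summed levels than the 4 neutrophil members. The summed FPKM of 15 lymphocyte genes was 2.52 to 5.43 over the 12 libraries, and that of 6 monocyte genes 13.5 to 37.9. Platelet genes summed to 20.1 to 41.4, most of it Pf4 at 27.8 on average, a chemokine gene that tissue macrophages express as well, while Gp6 had 2 reads. The macrophage list was 139 to 315, with C1qa at 80.7 on average. Of the 20 tested genes of these 4 lists, 0 were called for IR (limma, mean IR effect), where 3.49% of all tested genes were. At an unadjusted p under 0.05 there were 2, Cd14 higher and Ccr2 lower, where 15.9% of all tested genes were. Of the 10 phagocyte oxidase and integrin genes, 0 were at either threshold.

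**Figure D5:**
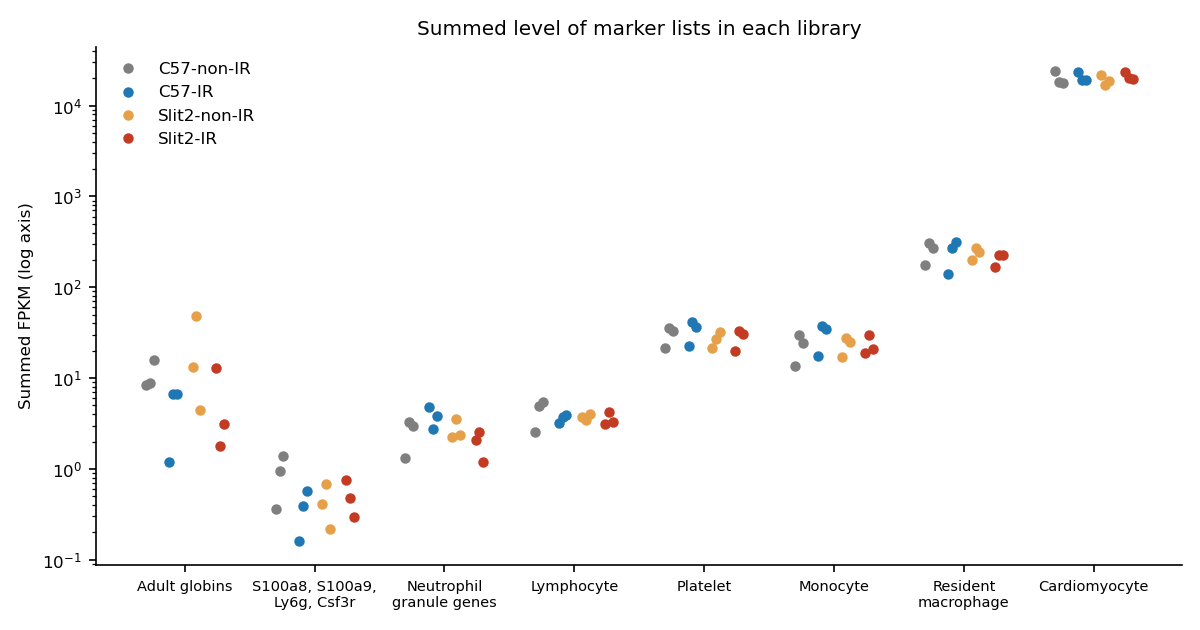
Summed FPKM of marker lists (log axis), 1 dot per library, coloured by group. The 4 neutrophil genes lie between 0.159 and 1.39, the adult globins between 1.19 and 48.8, and the cardiomyocyte genes between 16871 and 24310.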

How the data were processed

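RNA from 12 perfused hearts was sequenced as paired ends (3 libraries per group, which the labels call independent samples). The deposited FPKM values were made by the authors, and the submitters' processing notes name HISAT2 and mm10, whereas the counting tool, annotation release and strand setting are not given in the sources used here. Whole reads were recovered from the FPKM steps, with 100% of values whole within 0.01 read, and gave 16601154 to 24841291 reads on genes per library. No sample column was left unused.

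A gene was tested if at least 3 libraries had 10 reads, scaled to the median depth, and its total was 15 or more (15240 of 52858). All 12 libraries were fitted together by limma 3.58.1 (R 4.3.3) with a variance trend on log2(FPKM + 1), and p was adjusted by Benjamini-Hochberg over all tested genes with a threshold of 0.05. A fold change on this scale understates that of low genes. Correlations used 100000 permutations, and single values exact permutation within the other factor (scipy 1.17.1). The fit was also run on simulated reads, with a single setting of spread for all genes and no outlying library. That run does not show how the fit performs on these data. P-values set a difference or a correlation against the spread between these libraries.

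The members and gene lists were chosen with earlier results of these data known. Named genes were all members, genes of the lists, and the 10 genes most correlated with each summed level. Alternatives were another pseudocount, filters, scalings, limma-voom on the recovered reads, a robust prior, a replicate block, the 6 libraries of a comparison and leaving out each library. Exact permutation, the 8 libraries numbered 2 and 3 and 2 values without 1 library were added after seeing the data. Libraries with the same number deviated together, with correlations of 0.143 to 0.294 in Slit2-IR against Slit2-non-IR and 0.154 to 0.362 in Slit2-IR against C57-IR, and as low as 0.0833 and 0.0377 in C57-IR against C57-non-IR and Slit2-non-IR against C57-non-IR.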

Additional observations from a re-analysis of the deposited data

How the results depend on the processing

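The number of members called was 0 in all 7 contrasts under every one of the 22 other settings run, and the smallest adjusted p of any member was 0.106. With the replicate block, 0 members were called in all 7 contrasts, and the block changed no other call on a member. The mean IR effect ranged from -1.69 to -0.78 for Hba-a1 and from -1.54 to -0.80 for Hbb-bs. The mean Slit2-Tg effect of Hbb-bs, 0.16 with all libraries, ranged from -0.22 to 0.47 when 1 library was left out (-0.22 without Slit2-non-IR replicate 2, -0.09 without Slit2-IR replicate 1 and -0.03 without C57-IR replicate 1) and was -0.24 in the 8 libraries numbered 2 and 3, a setting added after seeing the data. The cause was not tested. The rank correlation of the globin sum with S100a8 plus S100a9 was 0.595 (adjusted p = 0.136) as deviations from the group means and 0.742 (adjusted p = 0.0593) without the 2 farthest libraries, the latter with fewer libraries.

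Counts over all genes moved more. With 1 library left out they ran from 3 (without C57-IR replicate 3) to 254 (without C57-IR replicate 1) in C57-IR against C57-non-IR, where 70 genes were called, and from 4 to 180 in Slit2-IR against Slit2-non-IR, where 80 were. With the replicate block they were 174 and 202, and 2 in place of 6 in Slit2-non-IR against C57-non-IR. Over all settings the mean IR effect gave 299 to 773 genes (532 as reported), the mean Slit2-Tg effect 6 to 30 (20), Slit2-IR against C57-IR 3 to 12 (7), Slit2-non-IR against C57-non-IR 0 to 14 (6) and the interaction 0 to 4 (0). Cxcl1 had an adjusted p of 0.0515 without the filter. S100a8, S100a9 and Hba-a2, with 12, 22 and 54 reads, are limited by depth.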
